A study of Mus musculus with 6 samples.

Results

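The genes described here are 31 genes of glucose uptake, glycolysis, lactate export and the hypoxia response, chosen by gene symbol. All 31 were found among the 21825 genes of the deposited table, and all 31 were abundant enough to be tested, among 15719 tested genes. Group 2 innate lymphoid cells (ILC2s), lymphocytes that make type 2 cytokines without a rearranged antigen receptor, were sorted from lungs of BALB/c mice aged 6 weeks. The mice of both groups had received 3 intraperitoneal injections of 1 µg IL-33. For 48 h both groups of sorted cells were kept in medium with 10 ng/mL IL-2 and 10 ng/mL IL-7. One group also received TNFa, a cytokine that activates NF-kB, at 40 ng/mL (3 libraries, replicates 4 to 6), and the other received PBS as vehicle (3 libraries, replicates 1 to 3). The IL-33 treatment precedes the culture in both groups, so the comparison is between ILC2s that were already activated in the animal. Whether each library stands for its own culture or animal is not stated, so the p-values reflect only the spread among these 6 libraries, which may be technical.

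Glycolysis converts glucose to pyruvate in a fixed series of cytosolic enzymes, and lactate dehydrogenase reduces pyruvate to lactate, which leaves the cell with a proton through monocarboxylate transporters. Activated lymphocytes run this route even with oxygen present. Many of its genes are also targets of HIF-1, a transcription factor made of the regulated subunit HIF-1α (Hif1a) and the partner ARNT. With oxygen, prolyl hydroxylases (Egln1 and Egln3 among them) mark HIF-1α for destruction through the VHL ubiquitin ligase, and without it HIF-1 binds hypoxia response elements with the core ACGTG or GCGTG.

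The libraries held 25089415, 27592246 and 32487004 counts with TNFa and 29185442 to 30908757 with PBS. Of the 12 ILC2 markers, 1 passed the test, as did 0.102% of all tested genes. This marker, Icos, a costimulatory receptor, fell to 517 ± 33.1 CPM with TNFa, against 888 ± 69.0 with PBS (log2 fold change -0.78 ± 0.10, edgeR, adjusted p = 0.036). CPM stands for counts per 1000000 of the TMM-scaled library. Gata3 (646 to 746 CPM with TNFa, 897 to 1034 with PBS) and the IL-33 receptor gene Il1rl1 (367 to 454 CPM with TNFa, 575 to 691 with PBS) were also below PBS without overlap (adjusted p = 0.20 and 0.22). At an unadjusted p under 0.05 in edgeR, 4 of the 12 markers were higher, Il5 and Il2ra among them, and 4 lower. That level was reached by 3.68% of all tested genes as higher and 4.63% as lower. Without overlap, 2 of the 12 lay above PBS and 5 below, against 6.85% and 8.35% of all tested genes. Il5, at 5442 ± 308 CPM with TNFa and 4520 ± 448 with PBS, and Il2ra, at 2228 ± 155 with TNFa and 1841 ± 216 with PBS, were the markers with the highest CPM, while Thy1 was at 4.52 CPM or less. DESeq2 called 3 of the 12 markers, Icos, Gata3 and Il1rl1, all lower, where it called 1.74% of all genes it gave an adjusted p. The TNF response genes Nfkbia, Nfkb2, Traf1 and Birc3 all rose with TNFa, by 0.73 to 1.18 on the log2 scale (edgeR, adjusted p from 0.032 to 0.043). The 4 calls held without TNFa replicate 5, but 0 were left without PBS replicate 1 or 3 or TNFa replicate 4 or 6, or with no filter on low counts, and 1 without PBS replicate 2, and the Icos call was lost in the same 6 fits. Birc3 was also not called in limma-voom. TNFa replicate 5 stood apart, with a score of 90.4 on the first principal component against -22.6 to -14.5 for the other libraries, and values without it are given beside the genes concerned or in the paragraph on that library. Mast cell genes were present throughout, the 7 markers (Tpsab1, Cma1, Kit and Ms4a2 among them) summing to 1341 to 1534 CPM with TNFa and 1288 to 1428 CPM with PBS. The 8 tested myeloid markers (Chil3, Lyz2, Adgre1 and S100a9 among them) summed to 14.2 to 53.0 CPM with TNFa and 43.2 to 98.5 CPM with PBS. Of these 8, 6 had lower means with TNFa, where 49.4% of all tested genes did. The 2 with higher means were Csf1r (3.38 CPM with TNFa, 1.30 with PBS) and S100a8 (1.24 with TNFa, 1.06 with PBS). Chil3 alone ranged from 0 to 33.1 CPM with TNFa and from 17.7 to 56.9 with PBS. Itgax was at 0 in TNFa replicates 5 and 6, Chil3 in TNFa replicate 6 and Csf1r in PBS replicate 1. The 7 T cell markers (Cd3g, Cd3e, Trac and Cd4 among them) summed to 76.6 to 86.2 CPM with TNFa and 89.7 to 101 CPM with PBS. The 4 B cell markers (Cd79b and Ms4a1 among them) summed to 13.8 to 16.5 CPM with TNFa and 20.2 to 20.6 CPM with PBS. The 4 tested structural markers summed to 142 to 198 CPM with TNFa and 119 to 153 CPM with PBS. Among them the epithelial gene Epcam was lower without overlap, at 14.2 ± 1.06 CPM with TNFa and 27.4 ± 1.59 with PBS (log2 fold change -0.95 ± 0.16, adjusted p = 0.088, and 0.049 without TNFa replicate 5). The endothelial gene Pecam1 was at 108 ± 34.9 CPM with TNFa and 94.7 ± 20.8 with PBS, and the club cell gene Scgb1a1 ranged from 0.187 to 81.0 CPM with TNFa and from 0.0341 to 8.07 CPM with PBS. The 2 tested erythroid genes, Hba-a1 and Hba-a2, summed to 1.38 to 2.57 CPM with TNFa and 1.74 to 3.51 CPM with PBS. The part of these other cells in the results on glycolytic genes was not tested. In such bulk libraries, fewer cells of a type and less RNA per cell cannot be told apart.

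The comparison asked how TNFa changed these genes. In edgeR's quasi-likelihood test, with p adjusted over all genes and a threshold of 0.05, 0 of the 31 genes passed, where 0.102% of all tested genes did. For 20 of the 31 the 95% interval lay within 1.5-fold in both directions, and for 11 it reached further. The members with the smallest p-values were 3 genes with higher levels with TNFa. These were Hk2, an inducible hexokinase (1.59-fold, 95% interval 1.25 to 2.01, adjusted p = 0.23), Bnip3, a mitophagy receptor (1.43-fold, 1.20 to 1.72, adjusted p = 0.22), and Ak4, a mitochondrial adenylate kinase (1.95-fold, 1.27 to 3.01, adjusted p = 0.36). All 3 are known HIF-1 targets, but the list was chosen to hold such targets, among them Vegfa and P4ha1 with smaller differences. A part of HIF-1 in these levels was not tested. DESeq2, another test, called these 3 genes higher (adjusted p = 0.0082, 0.0066 and 0.046) and no other of the 31, while it called 1.74% of the genes it gave an adjusted p, 0.853% as higher.

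Because Hk2, Bnip3 and Ak4 were the members highest above PBS, their promoter windows are shown beside that of Ldha, the most abundant of the 31. Each window runs from 250 bases before to 50 after a RefSeq start (RefSeq, GRCm38.p6, the reference strain and not BALB/c), 5′ to 3′ on the gene's strand. Capitals mark ACGTG or GCGTG on either strand, so CACGT and CACGC are matches on the opposite strand, and CACGTG holds a match on both.
Hk2 (chr6:82774405-82774704, minus strand): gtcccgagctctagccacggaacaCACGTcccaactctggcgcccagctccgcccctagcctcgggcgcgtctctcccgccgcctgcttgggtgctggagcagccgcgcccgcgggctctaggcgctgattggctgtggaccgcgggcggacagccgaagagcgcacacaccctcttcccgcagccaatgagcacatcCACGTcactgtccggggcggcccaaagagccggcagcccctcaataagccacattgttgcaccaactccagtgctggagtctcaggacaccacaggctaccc
Bnip3 (chr7:138909457-138909756, minus strand): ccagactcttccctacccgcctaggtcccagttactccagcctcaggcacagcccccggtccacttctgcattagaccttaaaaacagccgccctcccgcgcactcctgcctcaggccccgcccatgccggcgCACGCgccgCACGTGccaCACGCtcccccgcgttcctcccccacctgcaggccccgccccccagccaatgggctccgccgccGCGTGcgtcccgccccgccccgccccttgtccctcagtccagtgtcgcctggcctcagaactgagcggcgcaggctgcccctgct
Ak4 (chr4:101419039-101419338, plus strand): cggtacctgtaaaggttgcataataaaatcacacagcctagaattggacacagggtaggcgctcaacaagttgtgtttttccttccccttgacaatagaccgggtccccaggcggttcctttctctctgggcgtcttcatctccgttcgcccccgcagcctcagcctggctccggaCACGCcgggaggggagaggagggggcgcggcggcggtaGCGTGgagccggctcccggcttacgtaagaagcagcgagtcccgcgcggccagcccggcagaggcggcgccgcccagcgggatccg
Ldha (chr7:46845554-46845853, plus strand): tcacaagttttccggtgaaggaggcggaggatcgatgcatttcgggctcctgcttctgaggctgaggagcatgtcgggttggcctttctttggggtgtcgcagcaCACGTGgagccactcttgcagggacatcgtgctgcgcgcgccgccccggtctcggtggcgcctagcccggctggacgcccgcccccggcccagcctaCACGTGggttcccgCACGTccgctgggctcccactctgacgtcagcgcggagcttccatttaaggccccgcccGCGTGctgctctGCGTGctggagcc
The core was found 2 times in the Hk2 window, both as ACGTG, and 2 times in the Ak4 window, both as GCGTG, where 20.6% of all windows held 2 or more. The Bnip3 window held 5, a number reached by 1.66% of all windows. The Ldha window held 7 matches, 5 of them ACGTG, a number reached by 0.301% of all windows, and its RefSeq start lies 4329 bases downstream of the gene's start in the deposited table. Of the 29 members with a window, 22 (75.9%) held at least 1 match in the window nearest the start of the gene, against 43.8% of all 32851 windows. The members were chosen partly as HIF-1 targets, so a higher share was likely from the choice alone and says nothing about these libraries. Each member also counted with 1 window, while all windows include several for some genes. A match is a run of letters and not evidence of binding. The 7 members without one there were Hk1, Gpi1, Aldoa, Tpi1, Pkm, Vegfa and Gys1. Of these, Hk1, Aldoa, Pkm and Vegfa held a match in another of their RefSeq windows. The RefSeq start used lay 8661 bases downstream of the gene's start for Aldoa and 6492 for Hif1a. Slc2a3 and Bnip3l had no matched entry.

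**Figure D1:**
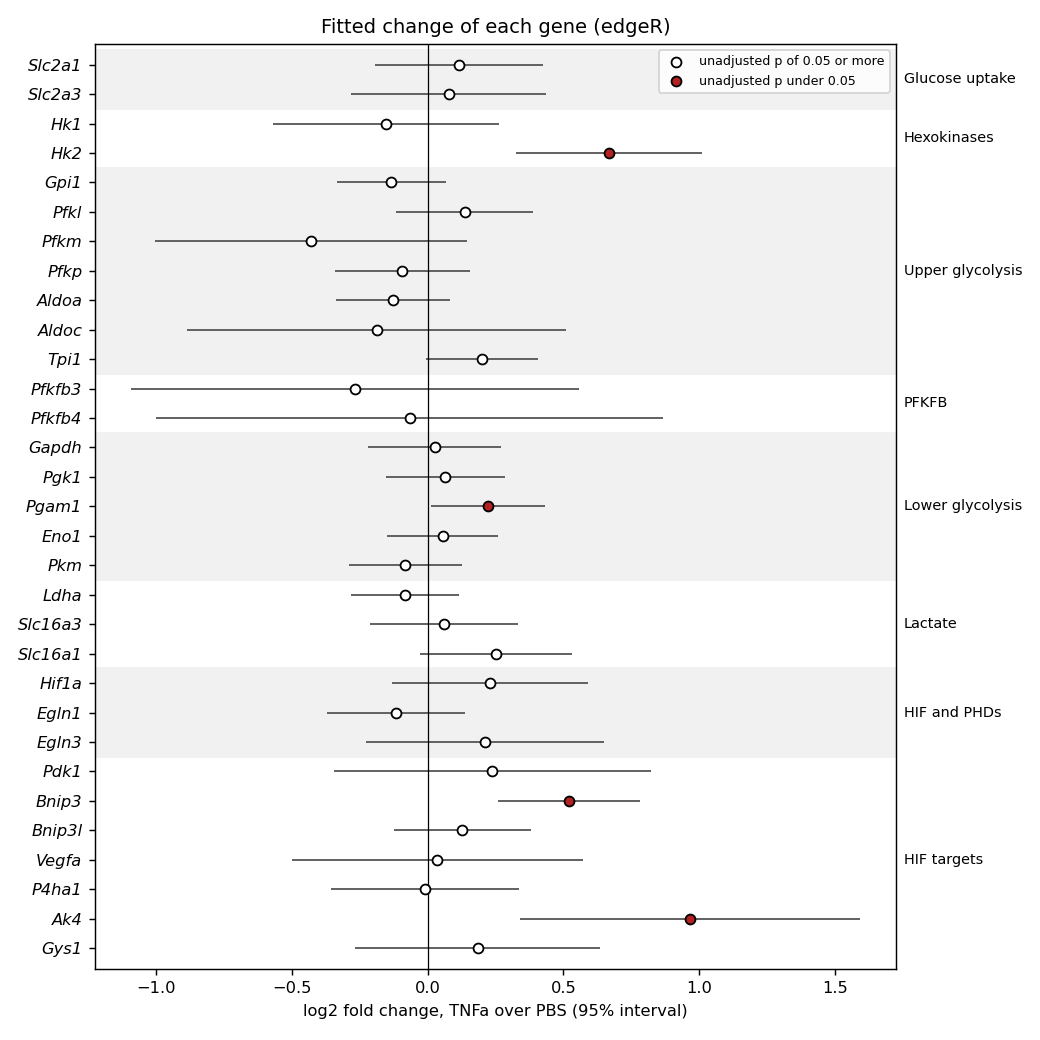
Fitted log2 fold change of each of the 31 genes, TNFa over PBS (x axis, edgeR), with its 95% interval, grouped by role down the y axis (PHD, prolyl hydroxylase; PFKFB, the bifunctional phosphofructokinase-2 enzymes). Filled points have an unadjusted p under 0.05: Ak4, Hk2, Bnip3 and Pgam1, all to the right of 0.

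At an unadjusted p under 0.05 there were 4 members, Hk2, Bnip3, Ak4 and Pgam1, all higher with TNFa and 0 lower. That is 12.9% of the 31, where 8.31% of all tested genes reached it, 3.68% higher and 4.63% lower. In the whole list 19 genes had a higher mean with TNFa and 12 a lower one, where 50.6% of all genes were higher. The median log2 fold change was 0.06 over the members and 0.00 over all tested genes. The 3 TNFa libraries did not overlap the 3 PBS libraries in 6 members (19.4%), 5 above and 1 below, against 15.2% of all tested genes (6.85% above and 8.35% below). For 20 members the 95% interval lay within 1.5-fold in both directions, so a larger change lies outside the interval of each. The other 11 were Hk2, Pfkm, Aldoc, Pfkfb3, Pfkfb4, Hif1a, Egln3, Pdk1, Bnip3, Ak4 and Gys1.

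Glycolytic message was abundant in both groups. The 15 enzyme genes from hexokinase to lactate dehydrogenase took 1.46% ± 0.0514 of all counts with TNFa and 1.48% ± 0.037 with PBS (mean ± SD, n = 3 each). By CPM, which also grows with transcript length, Ldha, Pkm, Eno1 and Aldoa each exceeded at least 99.7% of tested genes, and 15 of the 31 members exceeded at least 90% of tested genes in CPM. Per kilobase of exon, lactate dehydrogenase was the most abundant step, at 1697 ± 77.5 CPM per kb with TNFa and 1800 ± 69.8 with PBS. Hexokinase was the least abundant, at 72.8 ± 17.0 CPM per kb with TNFa and 75.2 ± 2.89 with PBS, isozymes summed. Phosphofructokinase, which commits sugar to glycolysis, was at 165 ± 15.4 CPM per kb with TNFa and 167 ± 11.2 with PBS, near the isomerase Gpi1 and below every later step.

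**Figure D2:**
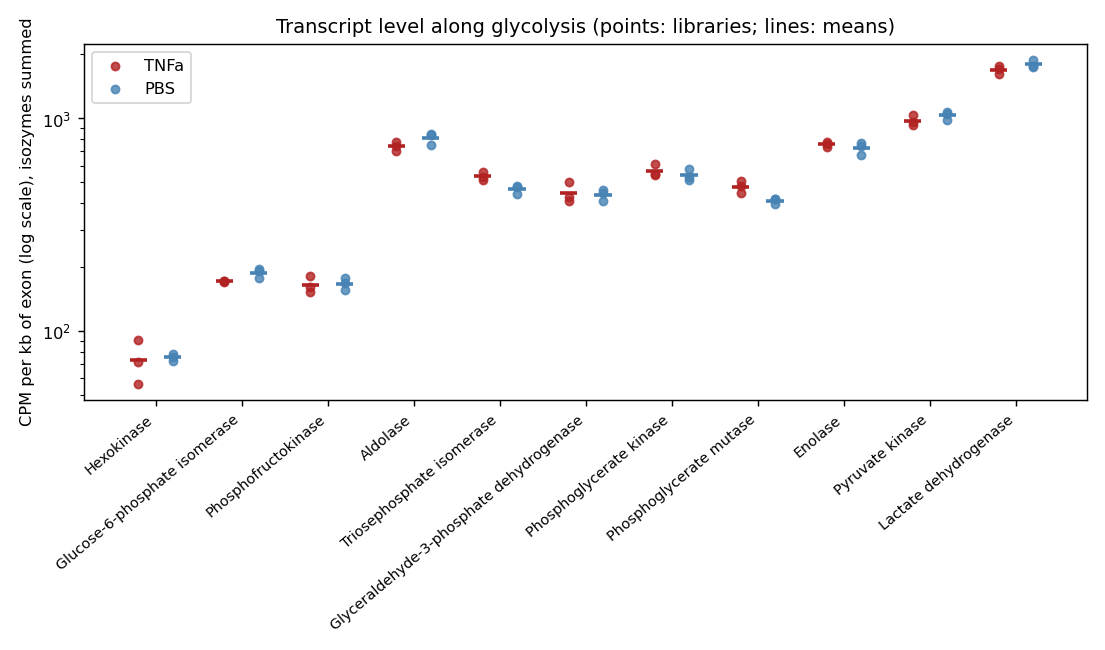
Transcript level of each glycolytic step in pathway order, as CPM per kb of exon on a log scale with isozymes summed (points are libraries, lines are means of 3). TNFa and PBS lie close together at every step, from hexokinase (72.8 CPM per kb with TNFa, 75.2 with PBS) to lactate dehydrogenase (1697 CPM per kb with TNFa, 1800 with PBS).

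Glucose enters lymphocytes mainly through GLUT1, encoded by Slc2a1, and GLUT3, encoded by Slc2a3. Slc2a1 was at 180, 136 and 172 CPM with TNFa and at 137, 171 and 141 CPM with PBS, so the groups overlapped. Its fitted ratio was 1.08 (95% interval 0.875 to 1.34, adjusted p = 0.87). Slc2a3 was at 52.0, 39.0 and 36.4 CPM with TNFa and 41.9, 40.9 and 38.0 CPM with PBS, also overlapping (adjusted p = 0.93). Per kilobase, Slc2a1 made up 82.3% ± 2.50 of the pair with TNFa and 81.8% ± 1.85 with PBS.

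The hexokinases phosphorylate glucose and so trap it in the cell. Hk2 (mm10, chromosome 6, 82725025 to 82774454, minus strand) was at 54.4, 78.8 and 69.2 CPM with TNFa and at 40.7, 41.7 and 45.1 CPM with PBS. Every TNFa library lay above every PBS library, and TNFa replicate 5 was the highest. The log2 fold change was 0.67 ± 0.15 (SE), and 0.54 without TNFa replicate 5 (adjusted p = 0.15). Hk1, the constitutive isozyme, was at 301, 205 and 378 CPM with TNFa and 315, 341 and 328 CPM with PBS. Here TNFa replicate 5 was the lowest of the 6 libraries and replicate 6 the highest, so the log2 fold change of -0.15 ± 0.19 (adjusted p = 0.87) became 0.05 without replicate 5. Per kilobase, Hk2 made up 13.5%, 24.9% and 13.7% of the pair with TNFa and 10.1%, 9.55% and 10.6% with PBS. Hk1 remained the more abundant hexokinase in every library.

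Of the enzymes that follow, up to triosephosphate isomerase, none passed the test. Gpi1, glucose-6-phosphate isomerase, was at 494, 491 and 498 CPM with TNFa and at 564, 549.5 and 514 CPM with PBS. It was the only member whose TNFa libraries all lay below the PBS libraries, by a log2 fold change of -0.13 ± 0.09 (adjusted p = 0.74). Tpi1, triosephosphate isomerase, was at 910, 991 and 933 CPM with TNFa and at 852, 838 and 775 CPM with PBS, without overlap. Its log2 fold change was 0.20 ± 0.09 (adjusted p = 0.61). Aldoa, the main aldolase, was at 1807, 1984 and 1908 CPM with TNFa and 2171, 2132 and 1923 CPM with PBS, and the groups overlapped (ratio 0.915, 0.791 to 1.06). Aldoc, the paralog best known from brain, stayed between 3.93 and 5.49 CPM with TNFa and between 3.99 and 6.33 CPM with PBS, and it held 0.204% of the aldolase pair per kilobase with TNFa and 0.212% with PBS.

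Phosphofructokinase has a platelet, a liver and a muscle isozyme. Pfkp was at 392, 358 and 451 CPM with TNFa and 400.2, 433 and 448 CPM with PBS. Pfkl was at 244, 239 and 273 CPM with TNFa and 208, 257 and 223 CPM with PBS. Both overlapped between groups (adjusted p = 0.87 and 0.80), and Pfkp was the more abundant per kilobase in every library. Pfkm was at 12.5 to 15.2 CPM with TNFa and 12.0 to 24.8 CPM with PBS (log2 fold change -0.43 ± 0.26, adjusted p = 0.72). Pfkm overlaps Senp1 on the other strand, and Pfkp overlaps Pitrm1, a gene at 277 ± 39.6 CPM with TNFa and 310 ± 12.4 with PBS. Of all genes overlapping a member, Pitrm1 had the most counts, and the length of the overlaps was not measured. Whether counting used strand is not given, so the reads of both isozymes, and their shares, are uncertain. Per kilobase, Pfkl made up 40.4%, 42.1% and 40.1% of the 3 isozymes with TNFa and 35.9%, 38.7% and 35.5% with PBS, without overlap between groups. The bifunctional enzymes that make and remove fructose-2,6-bisphosphate, an activator of phosphofructokinase, were scarce. Pfkfb3 ranged from 4.15 to 5.37 CPM with TNFa and from 2.99 to 7.53 CPM with PBS, and Pfkfb4 from 1.63 to 2.85 CPM with TNFa and from 1.84 to 3.26 CPM with PBS. Their intervals were among the widest (0.469 to 1.47 and 0.500 to 1.82), so these libraries bound a change of either gene only loosely.

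**Figure D3:**
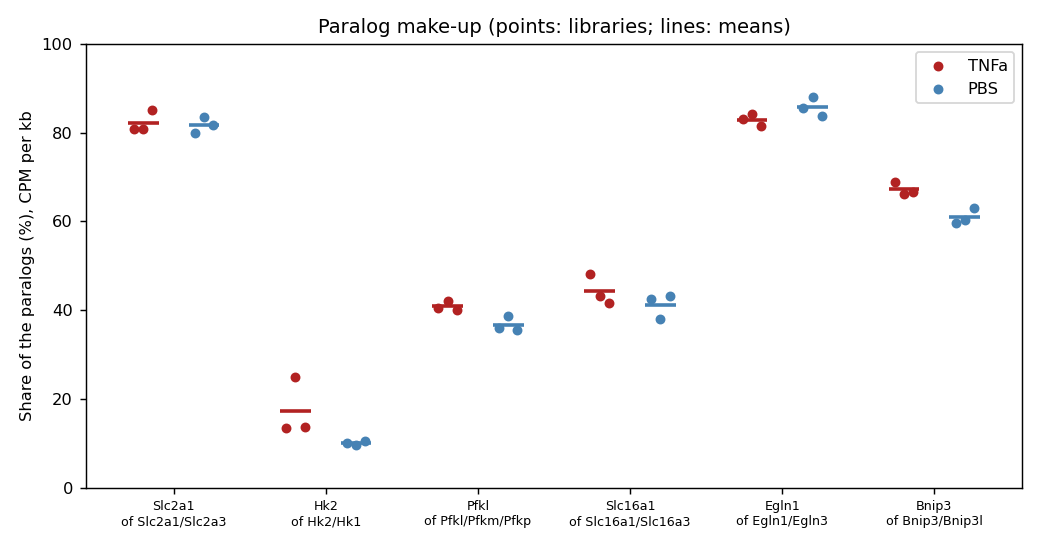
Share of one paralog within its family (y axis, percent of summed CPM per kb), in each library (points) with the mean of each group (lines). Hk2 made up 17.4% ± 6.55 of the hexokinase pair with TNFa and 10.1% ± 0.538 with PBS (mean ± SD). Its share was 24.9% in TNFa replicate 5, against 13.5% and 13.7% in replicates 4 and 6. Bnip3 made up 67.2% of its pair with TNFa and 61.0% with PBS, while the shares of Slc2a1, Slc16a1 and Egln1 overlapped between groups.

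The enzymes of the ATP-yielding stage of glycolysis were among the most abundant transcripts. Pgam1, phosphoglycerate mutase, was at 850.2, 899 and 791 CPM with TNFa and at 738, 739 and 700.5 CPM with PBS, without overlap. Its log2 fold change was 0.22 ± 0.09 (adjusted p = 0.56), and 0.18 without TNFa replicate 5. Gapdh, the glyceraldehyde-3-phosphate dehydrogenase often used to normalise expression, was at 613, 754 and 636 CPM with TNFa and 691, 666 and 611 CPM with PBS (ratio 1.02, 0.859 to 1.21). Its direction turned without TNFa replicate 5 (log2 fold change -0.07). Pgk1, phosphoglycerate kinase, averaged 1033 ± 68.4 CPM with TNFa and 988 ± 62.4 with PBS (ratio 1.05, 0.899 to 1.22). Pkm, pyruvate kinase, averaged 2536 ± 157 CPM with TNFa and 2687 ± 128 with PBS (ratio 0.944, 0.817 to 1.09).

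Eno1, the main enolase, was at 1929, 1965 and 1876 CPM with TNFa and 1946, 1898 and 1712 CPM with PBS (ratio 1.04, 0.900 to 1.20). Its reads cannot be separated well from those of 2 near-identical genes. Eno1b, annotated as protein coding, averaged 1199 ± 49.4 CPM with TNFa and 1150 ± 82.2 with PBS. Gm4735, annotated as a processed pseudogene, averaged 1059 ± 115 CPM with TNFa and 1106 ± 69.7 with PBS. The 3 together summed to 4181 ± 104 CPM with TNFa and 4108 ± 270 with PBS, and Eno1 held 46.0% of that with TNFa and 45.1% with PBS. The level given for Eno1 alone, and for the enolase step, is therefore less than the sum of the enolase reads. Gapdh had 43 such copies with counts, the largest being Gm13394 at 279.9 ± 5.38 CPM with TNFa and 299 ± 23.6 with PBS. Gapdh and its copies summed to 989 ± 86.5 CPM with TNFa and 996 ± 64.3 with PBS. Smaller copies were found for Pgk1, Pgam1, Gpi1, Pkm, Bnip3l and Pfkm (here an overlapping gene annotated as antisense), which held at least 90.8% of their family's counts in either group.

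Lactate production and export showed the same small differences. Ldha, the lactate dehydrogenase subunit that favours lactate formation, was at 3249, 3056.5 and 3345 CPM with TNFa and at 3563, 3344 and 3324 CPM with PBS. The groups overlapped and the ratio was 0.943 (0.822 to 1.08, adjusted p = 0.84). Slc16a3 encodes MCT4, the high-capacity lactate exporter, and averaged 145 ± 17.0 CPM with TNFa and 139 ± 12.5 with PBS. Slc16a1, which encodes the monocarboxylate transporter MCT1, was at 131, 98.5 and 116 CPM with TNFa and at 97.4, 93.4 and 99.5 CPM with PBS. TNFa replicates 4 and 6 lay above all PBS libraries and replicate 5 among them. The log2 fold change was 0.25 ± 0.13 (adjusted p = 0.65), and 0.35 without TNFa replicate 5 (adjusted p = 0.19).

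The oxygen-sensing switch itself did not pass. Hif1a was at 880.0, 593 and 831 CPM with TNFa and at 581, 612 and 771 CPM with PBS. TNFa replicates 4 and 6 were the highest of the 6 libraries and replicate 5 lay within the PBS range. The log2 fold change was 0.23 ± 0.16 (adjusted p = 0.76), and 0.38 without TNFa replicate 5 (adjusted p = 0.22). These are mRNA levels, and HIF-1α is regulated mainly by degradation of the protein, which was not measured. Egln1 (PHD2) averaged 114 ± 6.30 CPM with TNFa and 124 ± 12.3 with PBS. Egln3 (PHD3), itself a HIF target, averaged 17.5 ± 2.70 CPM with TNFa and 15.1 ± 2.03 with PBS (adjusted p = 0.83 and 0.82).

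Of the 7 further HIF-1 targets, 6 had higher means with TNFa, where 50.6% of all tested genes did. Among these 6, Vegfa and Gys1 were not higher in every fit that left out a library. The 2 with the smallest p-values were Bnip3 and Ak4. Bnip3 (mm10, chromosome 7, 138890836 to 138909519, minus strand) was at 126, 124 and 104 CPM with TNFa and at 80.0, 80.1 and 86.4 CPM with PBS. All TNFa libraries lay above all PBS libraries, the log2 fold change being 0.52 ± 0.12, or 0.48 without TNFa replicate 5 (adjusted p = 0.13). Its paralog Bnip3l (NIX), another mitophagy receptor, was at 101, 112 and 91.7 CPM with TNFa and 95.7, 93.3 and 89.9 CPM with PBS, and the groups overlapped (ratio 1.09, 0.916 to 1.30). Per kilobase Bnip3 therefore made up more of the pair with TNFa, at 67.2% ± 1.39 against 61.0% ± 1.77 with PBS. Ak4 (mm10, chromosome 4, 101419277 to 101466995, plus strand) was at 7.39, 6.88 and 9.17 CPM with TNFa and at 4.80, 3.71 and 3.48 CPM with PBS, again without overlap. Its log2 fold change was 0.97 ± 0.28, and 1.05 without TNFa replicate 5 (adjusted p = 0.19). It is a scarce transcript, with a CPM above that of 38.5% of tested genes.

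**Figure D4:**
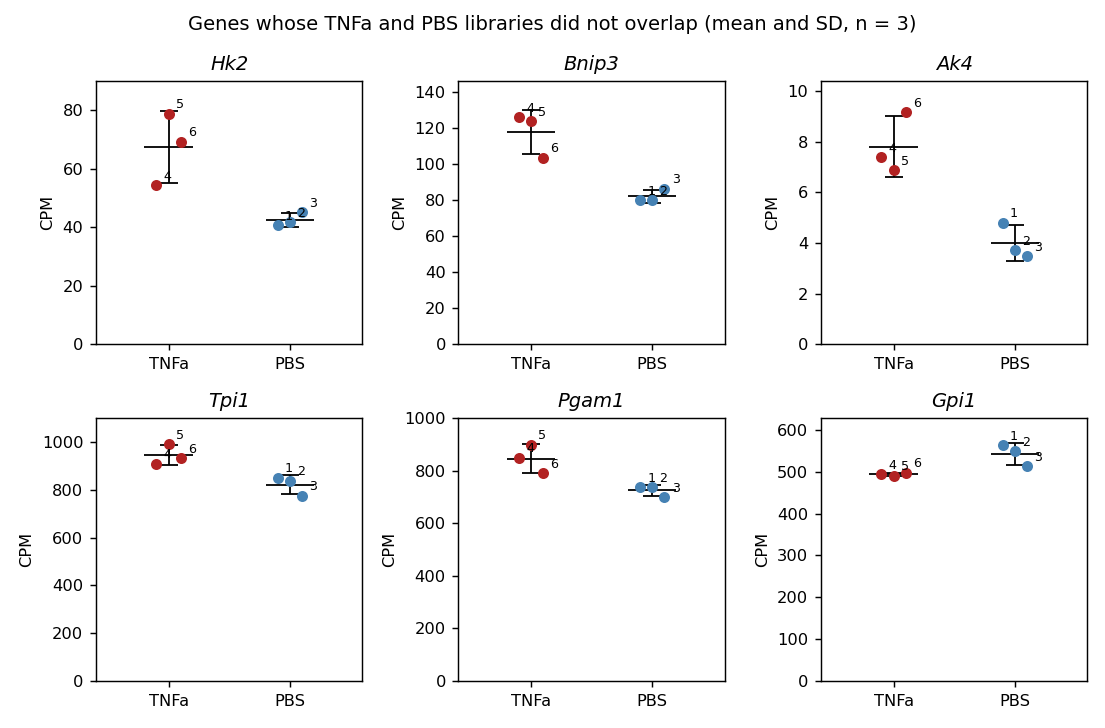
CPM in each library (points, numbered by replicate) of the 6 members whose TNFa and PBS libraries did not overlap, with the mean and SD of 3 libraries per group. Hk2, Bnip3, Ak4, Tpi1 and Pgam1 were higher in all TNFa libraries and Gpi1 was lower, and none of the 6 passed the test over all genes.

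Pdk1, the kinase that inhibits pyruvate dehydrogenase and so keeps pyruvate out of mitochondria, was at 30.4, 16.6 and 33.6 CPM with TNFa and at 18.0, 24.6 and 25.7 CPM with PBS. TNFa replicate 5 was the lowest library and replicates 4 and 6 the highest. The log2 fold change was 0.24 ± 0.26, and 0.49 without TNFa replicate 5 (adjusted p = 0.85 and 0.35). Gys1, glycogen synthase, had the same order, at 31.4, 22.7 and 39.8 CPM with TNFa and 28.2, 26.6 and 28.0 CPM with PBS. Gys1 overlaps Ruvbl2 on the other strand, a gene at 126 ± 4.27 CPM with TNFa and 109 ± 5.90 with PBS, so its reads are uncertain. P4ha1, a collagen prolyl hydroxylase subunit, averaged 47.7 ± 7.77 CPM with TNFa and 48.0 ± 4.59 with PBS. Vegfa, the vascular growth factor that is a classical HIF target, was scarce, at 8.14 ± 0.997 CPM with TNFa and 7.95 ± 1.16 with PBS.

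TNFa replicate 5 bore on several of these values. Its make-up differed beyond these genes, with 4.18% of counts in ribosomal protein genes against 2.60% to 2.92% in the other libraries. This library was the lowest of the 6 libraries for 10 members, among them Hk1, Pdk1, Gys1 and P4ha1, and the highest for 7, among them Hk2, Pgam1, Tpi1 and Gapdh. PBS replicate 3 was also the lowest for 10. The median deviation of the 31 genes from the PBS mean was 0.12, -0.04 and 0.08 on the log2 scale in TNFa replicates 4, 5 and 6. Without replicate 5, again 0 members passed the adjusted test, where 0.406% of all genes did. The members at an unadjusted p under 0.05 were then 7, all higher with TNFa, where 10.8% of all genes reached it, 5.23% higher and 5.56% lower. These were Hk2, Bnip3, Ak4, Slc16a1, Hif1a, Pdk1 and Gys1, with ratios from 1.28 for Slc16a1 to 2.07 for Ak4. Pgam1 was not among them. Without replicate 5 the log2 fold change also moved by over 1.5 times for genes far from the threshold. It became 0.23 for Slc2a1, 0.13 for Slc2a3, -0.36 for Aldoc, 0.13 for Slc16a3, 0.07 for Vegfa, 0.37 for Gys1 and 0.12 for P4ha1. It came closer to 0 for Pfkp (-0.02), Pgk1 (0.01), Pkm (-0.05), Ldha (-0.05) and Bnip3l (0.05).

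**Figure D5:**
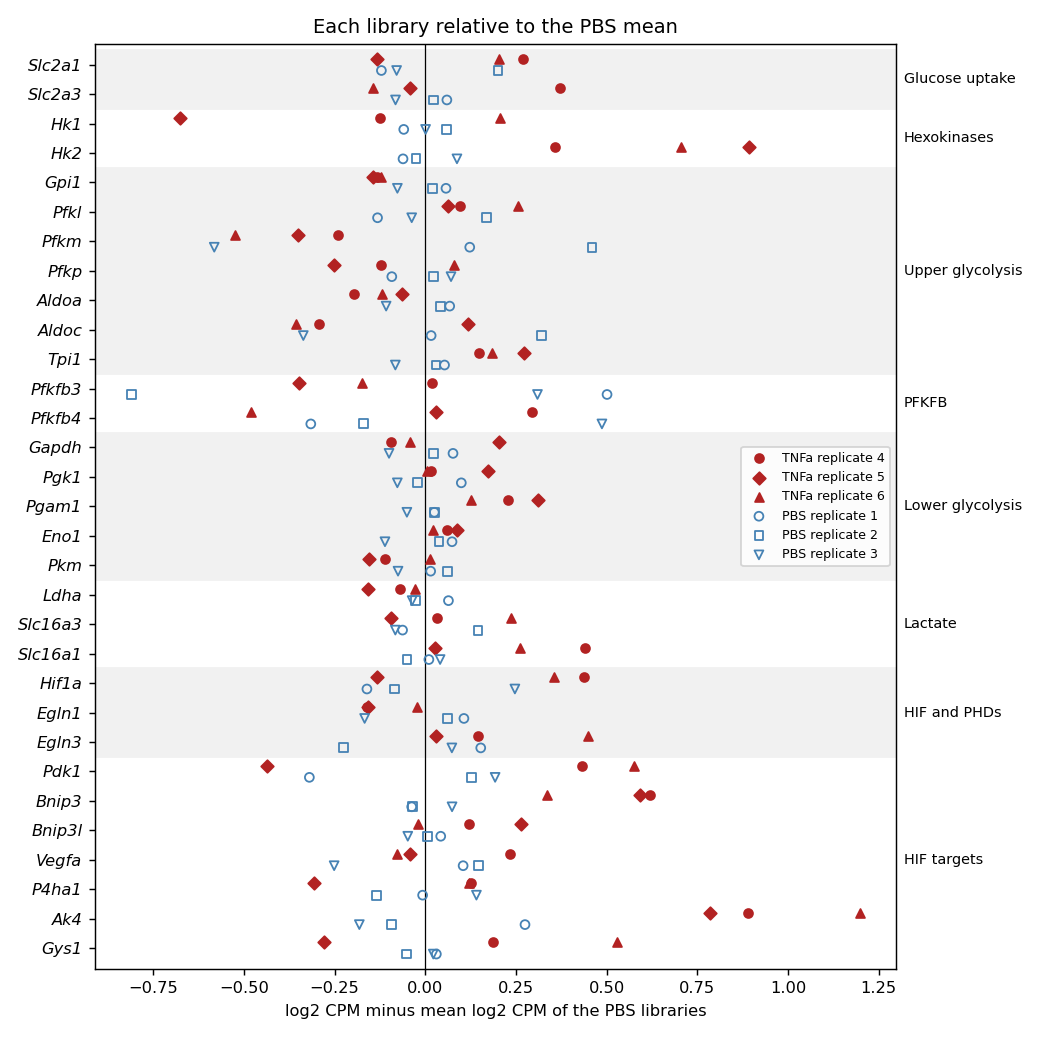
Log2 CPM of each library minus the mean of the PBS libraries (x axis) for the 31 genes, grouped by role. TNFa libraries are filled and PBS libraries open. TNFa replicate 5 (filled diamonds) lies lowest for Hk1, Pdk1 and Gys1 and highest for Hk2.

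Other genes of the same routes gave 0 calls in edgeR over all genes in each list. DESeq2 called 2 of them, Slc2a6 higher (1 of 14 genes of its list) and Ndrg1 lower (1 of 21). It called 1.74% of all genes it gave an adjusted p. Of 14 tested genes of glycolysis and sugar transport outside the 31, 2 were higher and 1 lower at an unadjusted p under 0.05, which 3.68% of all tested genes reached as higher and 4.63% as lower. Without TNFa replicate 5 it was 1 higher and 1 lower. Slc2a6, a hexose transporter of intracellular vesicles, was at 33.3, 20.5 and 22.4 CPM with TNFa and 12.3, 14.1 and 12.2 CPM with PBS, without overlap (log2 fold change 0.98 ± 0.22, adjusted p = 0.21). It passed the test without TNFa replicate 5 (1.11, adjusted p = 0.049) and in DESeq2 (0.99, adjusted p = 0.0028). Slc2a8, another intracellular transporter, was at 27.9, 21.5 and 25.5 CPM with TNFa and 35.4, 40.7 and 30.4 CPM with PBS (-0.51 ± 0.17, adjusted p = 0.43). The third was Pfkfb1, named after its values were seen, at 2.53, 7.18 and 5.63 CPM with TNFa and 2.25, 2.25 and 2.94 CPM with PBS. Bsg, the chaperone of the lactate transporters, was at 400.3 ± 21.0 CPM with TNFa and 393 ± 32.1 with PBS, and Gpd2, the mitochondrial glycerol-3-phosphate dehydrogenase, at 88.7 ± 10.3 with TNFa and 83.6 ± 7.34 with PBS.

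Of 21 other HIF targets, 4 were higher and 1 lower at that level, against the same 3.68% and 4.63% of all tested genes. Car12, a carbonic anhydrase, was at 29.4, 21.8 and 17.8 CPM with TNFa and 17.0, 12.8 and 12.6 CPM with PBS (0.70 ± 0.23, adjusted p = 0.42). Ndrg1, a widely used hypoxia marker, was lower, at 14.0, 7.33 and 11.6 CPM with TNFa and 21.4, 19.9 and 18.7 CPM with PBS (-0.86 ± 0.24, adjusted p = 0.35, and 0.046 in DESeq2). Fam162a, P4ha2 and Gbe1, named after their values were seen, were the other 3 higher genes, at 0.29, 0.31 and 0.72 on the log2 scale. The genes with the highest CPM were Ero1l, an oxidoreductase of the endoplasmic reticulum, at 1961 ± 305 CPM with TNFa and 2031 ± 214 with PBS, and Mif, a cytokine, at 557 ± 58.1 with TNFa and 468 ± 68.8 with PBS. Both directions thus occurred among these targets, with a median log2 fold change of 0.08.

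Of the 8 genes of HIF regulation outside the 31, 7 had lower means with TNFa, where 49.4% of all tested genes did. The number was 6 to 8 in the alternative fits, which reuse the same libraries. Cited2, a competitor of HIF for its coactivator, had the smallest p (-0.34 ± 0.15, adjusted p = 0.60). Hif1an, the asparaginyl hydroxylase of HIF, averaged 33.3 ± 2.22 CPM with TNFa and 39.8 ± 3.43 with PBS (-0.26 ± 0.14, adjusted p = 0.69). The list's genes with the highest CPM were Os9, at 175 ± 28.3 with TNFa and 206 ± 9.82 with PBS, and the prolyl hydroxylase gene Egln2, at 49.3 ± 7.66 with TNFa and 57.4 ± 9.91 with PBS. Of 10 genes of pyruvate entry into mitochondria, 0 or 1 reached an unadjusted p under 0.05 in the alternative fits. In the main edgeR fit none did, where 8.31% of all tested genes did. Mpc1, a subunit of the mitochondrial pyruvate carrier, came closest, at 194 ± 21.4 CPM with TNFa and 160 ± 17.8 with PBS (adjusted p = 0.60), and Pdha1, a subunit of pyruvate dehydrogenase, was at 167 ± 24.9 with TNFa and 176 ± 19.8 with PBS. The phosphatase gene Pdp2 was at 9.21 ± 3.64 CPM with TNFa and 7.01 ± 0.741 with PBS. The 7 pentose phosphate genes and the 5 genes of the serine branch also gave none in the main edgeR fit, their medians being -0.01 and -0.02. Of the pentose phosphate genes, Tkt, transketolase, stood at 346 ± 11.3 CPM with TNFa and 372 ± 33.7 with PBS, Taldo1, transaldolase, at 294 ± 18.4 with TNFa and 317 ± 20.7 with PBS, and G6pdx, which opens the route, at 341 ± 61.6 with TNFa and 357 ± 4.07 with PBS. Psat1, of serine synthesis, stood at 496 ± 35.3 CPM with TNFa and 501 ± 17.8 with PBS. The serine hydroxymethyltransferases Shmt2 and Shmt1 were at 454 ± 18.7 and 74.3 ± 13.7 CPM with TNFa and at 482 ± 32.8 and 64.0 ± 6.96 CPM with PBS. Among 10 regulators of glucose use, 2 were lower at an unadjusted p under 0.05, as were 4.63% of all tested genes. These were Akt1 and Akt2, kinases that promote glucose uptake (-0.34 ± 0.14 and -0.47 ± 0.13, adjusted p = 0.52 and 0.35). Of the 10, 2 had higher and 8 lower means with TNFa, where 49.4% of all tested genes were lower, and 5 and 5 without TNFa replicate 5. Txnip, which restrains glucose uptake, averaged 149 ± 17.9 CPM with TNFa and 170 ± 12.6 with PBS (adjusted p = 0.73).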

How the data were processed

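Libraries were made by standard Illumina procedures from 10 ng of total RNA, per the labels' protocols. The deposited table holds estimated counts, one value a gene, that the authors made in Partek by expectation maximization against a gene model (per the file headers and name), a method that divides reads matching several genes. The submitters' processing notes list CASAVA 1.8.2, STAR and mm10; annotation release, gene filter and strand setting were not given in the sources used here. Of the deposited values 41.7% were whole within 0.01.

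Counts were rounded and fitted in edgeR 4.0.16 (R 4.3.3): filterByExpr (minimum count 10, total 15), TMM, robust quasi-likelihood test of TNFa against PBS, Benjamini-Hochberg over 15719 genes, threshold 0.05. SEs come from the fold change and its F statistic. Levels are CPM, per kilobase using GENCODE M21 exon lengths; 29 members had identical coordinates there. Copies shared at least 5% of a member's 50-base words.

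The members, lists and the rule for naming genes (all 31 members; of other lists, called genes, the 2 most abundant and the 2 with the smallest p; Il1rl1, Thy1, Itgax, Csf1r and S100a8 were added as cell type markers) were chosen with earlier results of these data known. Alternatives were RLE scaling, no filter or at least 5 CPM, DESeq2 1.42.0, limma-voom (limma 3.58.1), a transcript length trend removed, and each library left out. PBS replicate 2 is labelled a repeat. The lowest count of any member was 54 (Pfkfb4), a Poisson counting error of 13.6%; it was 9.58% to 10.7% for the lowest counts of Ak4, Aldoc and Pfkfb3 and less for the others.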

Additional observations from a re-analysis of the deposited data

How the results depend on the processing

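The members past the adjusted threshold were 0 under every alternative except DESeq2, which called 3 (1.74% of all genes it adjusted), and their range when each library was left out was 0 to 0. Over all genes, the count of 16 was 3 with no filter on low counts, 25 with the filter at 5 CPM, 220 in DESeq2 (108 higher, 112 lower), 30 with the length trend removed (17 higher, 13 lower) and 1 to 67 when each library was left out. Leaving out TNFa replicates 4, 5 and 6 in turn gave 3, 67 and 5 genes, and leaving out PBS replicates 1, 2 and 3 gave 1, 3 and 2, with fewer libraries left for the test. Even the 4 TNF response genes gave 0 calls with no filter and without PBS replicate 1 or 3 or TNFa replicate 4 or 6. Without PBS replicate 2 they gave 1. A count of 0 members in those fits therefore says little about the members. The 4 members at an unadjusted p under 0.05 numbered 3 to 7 when a library was left out, 7 being without TNFa replicate 5, and the median log2 fold change of the members lay between 0.03 and 0.09 over the same fits. Of 370 comparisons of single members with their own value, 352 kept direction and side of the threshold, 3 were past it in DESeq2 only and 15 in 9 members changed sign. P4ha1 changed sign with the filter at 5 CPM (0.0055) and with the length trend removed (0.014). The other sign changes came from leaving out a library, where the log2 fold change ranged from -0.098 to 0.18 for Slc2a3, -0.38 to 0.047 for Hk1, -0.26 to 0.23 for Pfkfb4, -0.073 to 0.080 for Gapdh, -0.0014 to 0.093 for Eno1, -0.036 to 0.13 for Slc16a3, -0.084 to 0.11 for Vegfa, -0.086 to 0.12 for P4ha1 and -0.030 to 0.37 for Gys1. The cause was not tested. Hk2, Bnip3 and Ak4 stayed higher with TNFa in all 12 alternatives, from 0.54 to 0.80, 0.46 to 0.60 and 0.83 to 1.12. These 3 were picked from the same libraries, where all their TNFa values lay above all their PBS values. Leaving out a library could therefore hardly turn their sign, and the ranges show only how far the size moved. No paired analysis was possible because the groups share no replicate number.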
